A study of Rattus norvegicus with 18 samples.

Results

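The genes of the interleukin-4 receptor and of alternative macrophage activation were followed in CD11b/c-sorted cells of the rat knee synovium, after surgery that induces osteoarthritis (OA) or after sham surgery. The 10 genes are Stat6, Il4r, Il13ra1, Il2rg, Arg1, Retnla, Clec10a, Pparg, Klf4 and Alox15. They were chosen by name, and each was found as 1 row among the 30643 genes of both deposited tables. Wild type male Sprague Dawley rats were 12 weeks old at surgery. In the OA groups the medial meniscotibial ligament and the anterior cruciate ligament were cut after opening the joint, and in the sham groups the joint was opened and no ligament was cut. RNA was sequenced from 5 OA and 5 sham libraries 4 weeks after surgery, each from the pooled synovium of 4 rats, and from 4 OA and 4 sham libraries 12 weeks after surgery, each from 3 rats. The sort selects an integrin of myeloid cells with magnetic beads, so it does not separate macrophages from other cells that carry it.

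Interleukin-4 binds a receptor made of IL-4Rα (Il4r) with either the common gamma chain (Il2rg) or IL-13Rα1 (Il13ra1), and interleukin-13 binds the second of these pairs. Janus kinases on the receptor chains phosphorylate STAT6, which enters the nucleus and activates genes of the alternative, or M2, programme. In rodent macrophages that programme includes arginase 1 (Arg1), the secreted protein RELMα (Retnla), the lectin CD301 (Clec10a) and 12/15-lipoxygenase (Alox15), with the transcription factors PPARγ (Pparg) and KLF4 (Klf4) acting together with STAT6. Resident synovial macrophages, tissue repair and the clearance of dying cells have all been tied to this programme.

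Reads recovered from the deposited values ranged from 4662344 to 18080503 per library. Sham replicate 3 of 4 weeks was the shallowest library and the most unlike the others of its group, and sham replicate 3 of 12 weeks also stood apart. For some estimates that moved without them, the value without them is given too. For some others the range over the alternatives is given. All 12 genes of a macrophage list (Csf1r, Cd14 and the C1q genes among them) were detected in every group. Their summed level was 116030 to 136210 normalized reads in the OA and 117625 to 130453 in the sham libraries at 4 weeks, and 147459 to 183731 in the OA and 123108 to 171696 in the sham libraries at 12 weeks. Markers of other cells were present too. Genes of fibroblasts summed to between 48412 and 112448 normalized reads per library, with medians of 86591 in OA and 60125 in sham at 4 weeks and of 90800 and 62945 at 12 weeks. The collagen genes Col3a1 and Col1a1 made up most of that sum. Ratios of the OA to the sham mean were 1.21 and 1.36 for them at 4 weeks and 1.37 and 1.48 at 12 weeks. Dcn, Lum, Pdgfra and Prg4 also had higher means in OA at both weeks. Pdgfrb (0.87 and 0.83 at 4 and 12 weeks) and Thy1 (0.87 and 0.70) had lower means in OA. Whether fewer cells of a type or less RNA per cell lies behind a lower level cannot be told apart in such bulk libraries.

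**Figure D1:**
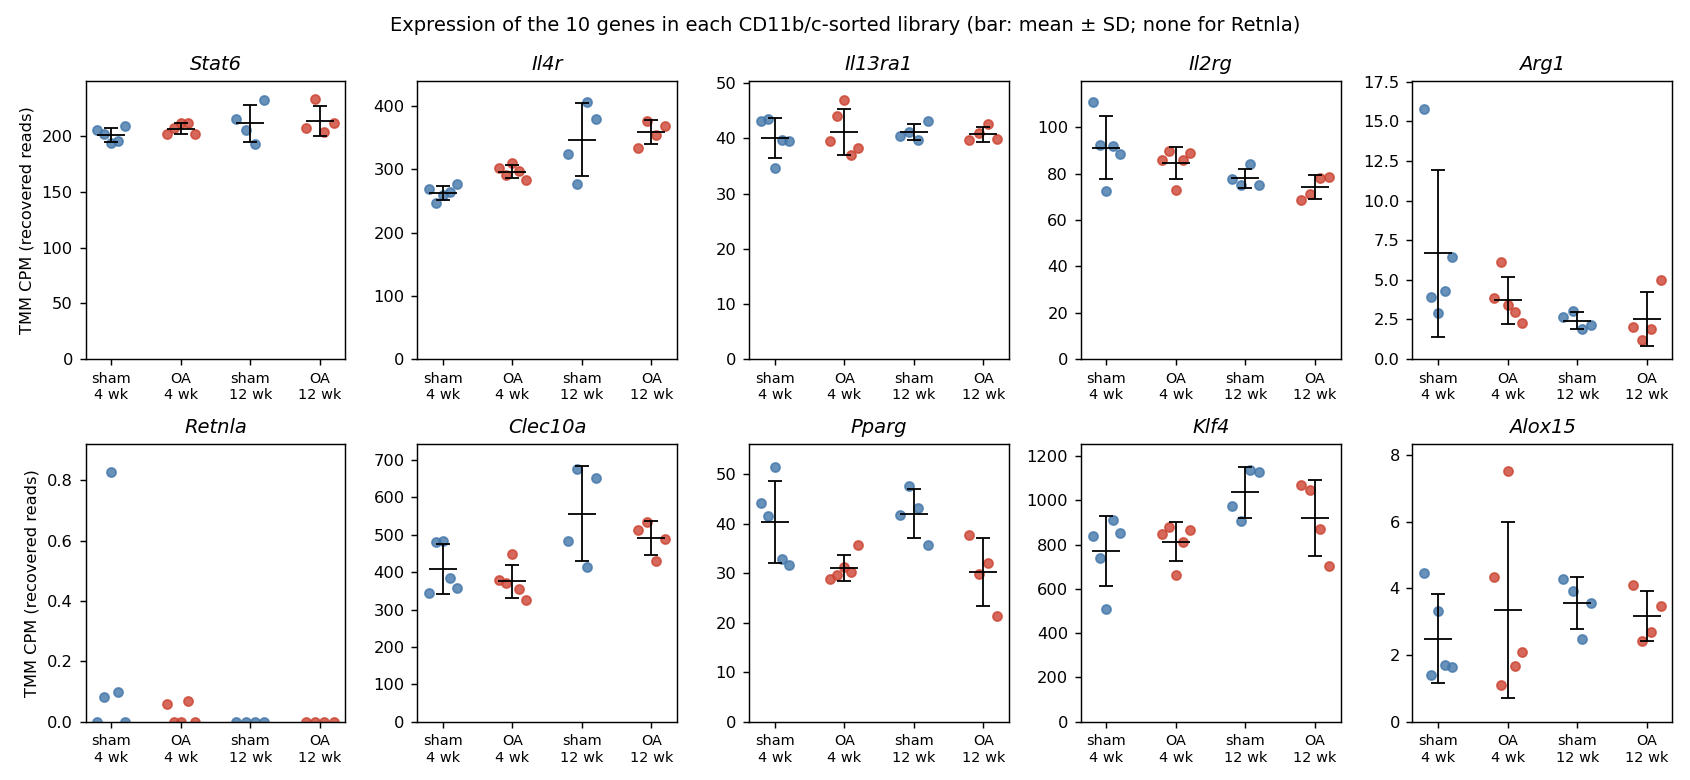
Level of each of the 10 genes in every library, as CPM (recovered reads over a common library size) with TMM scaling across all 18 libraries, with an axis from 0 for each gene. Points are libraries (blue sham, red OA), and bars give the mean ± SD of 5 libraries at 4 weeks or 4 libraries at 12 weeks. Retnla has no point above 0.828 CPM, the OA points of Pparg lie mostly below the sham points at both weeks, and within each surgery the points of Il4r lie higher at 12 weeks than at 4 weeks.

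The first question was whether OA altered the level of these genes at either week. A gene counted as called where its adjusted p in limma was under 0.05 and its log2 fold change reached 0.5 or -0.5. By that rule 0 of the 9 genes tested were called at 4 weeks, where the share over all 14861 genes tested was also 0%, and 0 of 9 at 12 weeks, where it was 0% of 14666 genes. Retnla had too few reads to be tested. At an unadjusted limma p under 0.05, 2 of the 9 passed at 4 weeks (Il4r higher, Pparg lower), beside 7.92% of all genes, and 1 of 9 at 12 weeks (Pparg lower), beside 12.4%. The groups did not overlap for 1 of the 9 at 4 weeks (Il4r), beside 1.87% of all genes, and for 0 of 9 at 12 weeks, beside 6.29%. The median log2 fold change of the 9 genes was 0.06 at 4 weeks and -0.12 at 12 weeks, while over all genes it was 0.03 and -0.01. Exact permutation tests were two-sided, unadjusted and 18 in number, and the smallest p-value possible was 0.00794 at 4 weeks and 0.0286 at 12 weeks. Only the smallest of their p-values, those of Il4r at 4 weeks and of Pparg at both weeks, are given below. The others ran from 0.159 (Stat6 at 4 weeks) to 0.886 (Stat6 at 12 weeks).

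**Figure D2:**
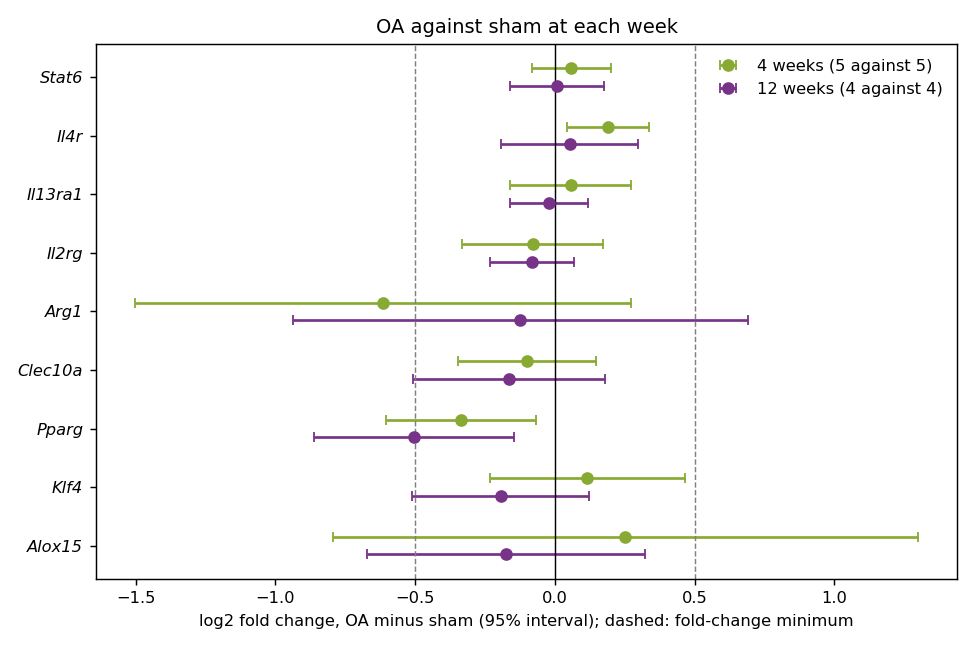
Log2 fold change of OA against sham for the 9 genes tested, at 4 weeks (5 libraries against 5) and 12 weeks (4 against 4), with 95% limma intervals. The intervals of Pparg lie below 0 at both weeks and that of Il4r lies above 0 at 4 weeks, and no other interval excludes 0.

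Stat6, the transcription factor that carries the receptor's signal, had the lowest coefficient of variation of the 10 genes in both groups at 4 weeks, 2.57% in OA and 5.31% in sham. At 4 weeks it stood at 2381, 2478, 2529, 2506 and 2410 normalized reads in OA replicates 1 to 5 and at 2461, 2390, 2175, 2310 and 2483 in sham replicates 1 to 5. The groups overlapped, and the lowest value was that of sham replicate 3. At 12 weeks it stood at 2787, 3156, 2748 and 2818 in OA replicates 1 to 4 and at 2935, 2789, 2587 and 3148 in sham replicates 1 to 4, where the ranges overlapped almost fully. The log2 fold change in limma was 0.06 at 4 weeks (95% interval -0.08 to 0.20, adjusted p = 0.808) and 0.01 at 12 weeks (-0.16 to 0.18, adjusted p = 0.971). A change of Stat6 mRNA as large as the fold-change minimum of 0.5 lies outside both intervals. The phosphorylation through which STAT6 acts is not measured by RNA sequencing.

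Il4r, which encodes the IL-4Rα chain shared by both receptor pairs, was higher in OA at 4 weeks. It stood at 3559, 3476, 3711, 3518 and 3378 normalized reads in OA replicates 1 to 5 and at 3231, 2918, 2917, 3108 and 3284 in sham replicates 1 to 5. Each OA library lay above every sham library, although the lowest OA and the highest sham value were close. The fold was 1.14 (log2 fold change 0.19, SE 0.07), with an unadjusted p of 0.0148 and an adjusted p of 0.570 in limma, and the exact permutation p was 0.00794, the smallest possible. Without sham replicate 3 the log2 fold change was 0.17 (adjusted p = 0.342, limma), and over 19 alternatives the adjusted p ranged from 0.0914 (DESeq2) to 0.891. At 12 weeks the OA libraries held 4498, 5095, 4800 and 4916 normalized reads and the sham libraries 4421, 3765, 5453 and 5139. The OA values lay inside the sham range, whose ends were sham replicates 2 and 3, and the log2 fold change was 0.05 (95% interval -0.19 to 0.30, adjusted p = 0.854, limma). The difference between the weeks in the OA effect on Il4r was -0.11 on the log2 scale (95% interval -0.37 to 0.15, adjusted p = 0.944, limma), so the OA effect at 4 weeks was not shown to differ from the OA effect at 12 weeks.

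The partner chains did not pass the test at either week. Il13ra1, the partner chain through which interleukin-13 signals, stood at 467, 525.9, 561, 438 and 458 normalized reads in OA replicates 1 to 5 and at 518, 514, 388, 468 and 470 in sham replicates 1 to 5 at 4 weeks. At 12 weeks it stood at 533, 555, 576 and 531 in OA replicates 1 to 4 and at 552, 559, 533 and 585 in sham replicates 1 to 4. The groups overlapped at both weeks, with the lowest value of all in sham replicate 3 of 4 weeks. Its log2 fold changes were 0.06 (95% interval -0.16 to 0.27) and -0.02 (-0.16 to 0.12). Il2rg, the gamma chain shared with several other interleukin receptors, stood at 1011, 1074, 871, 1016 and 1061 normalized reads in OA replicates 1 to 5 and at 1332, 1090, 812, 1083 and 1050 in sham replicates 1 to 5 at 4 weeks. At 12 weeks it stood at 921, 962, 1056 and 1048 in OA replicates 1 to 4 and at 1058, 1021, 1124 and 1016 in sham replicates 1 to 4. Its log2 fold changes were -0.08 (95% interval -0.33 to 0.17) and -0.08 (-0.23 to 0.07), and 2 of the 4 OA libraries at 12 weeks lay below every sham library. The sham spread of Il2rg at 4 weeks came from replicate 1, the highest, and replicate 3, the lowest. The log2 fold change of Il2rg at 4 weeks was 0.0031 without the first and -0.17 without the second (unadjusted p = 0.0568, adjusted p = 0.493, limma), and that of Il13ra1 was -0.01 without replicate 3.

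Pparg, which encodes a nuclear receptor of lipid metabolism that acts with STAT6 in macrophages, was lower in OA at both weeks. At 4 weeks it stood at 340, 354, 374, 357 and 426 normalized reads in OA replicates 1 to 5 and at 530, 491, 578, 389 and 377 in sham replicates 1 to 5. Here 4 of the 5 OA libraries lay below every sham library, and OA replicate 5 lay among the lower sham values. The fold was 0.792 (log2 fold change -0.34, SE 0.12), with an unadjusted p of 0.0180 and an adjusted p of 0.575 in limma and an exact permutation p of 0.0476. Without sham replicate 3, the highest of its group, the log2 fold change was -0.26 (unadjusted p = 0.0358, limma).

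At 12 weeks Pparg stood at 508, 404, 433 and 284 normalized reads in OA replicates 1 to 4 and at 569, 646, 579 and 484 in sham replicates 1 to 4. The groups overlapped through OA replicate 1 and sham replicate 4, and 3 of the 4 OA libraries lay below every sham library. The fold was 0.705 (log2 fold change -0.51, SE 0.16), with an unadjusted p of 0.0103 and an adjusted p of 0.315 in limma and an exact permutation p of 0.0571. Without sham replicate 3 of that week the log2 fold change was -0.49 (unadjusted p = 0.0187, limma).

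In 1 fit over both weeks, the fold of Pparg was 0.745 (log2 fold change -0.43, SE 0.11, 95% interval -0.65 to -0.20), and its adjusted p was 0.0643 in limma and 0.0652 in edgeR. In DESeq2 the adjusted p was 0.0110, at a log2 fold change of -0.42. Over 27 alternatives the adjusted p ran from 0.0110 to 0.154 and was under 0.05 in 6 of them, and the log2 fold change ran from -0.48 to -0.34, so it stayed under the fold-change minimum of 0.5 in each. None of the 9 genes was called in that fit, in which 0.376% of 14876 genes were called, and 1 of 9 passed at an unadjusted p under 0.05, beside 14.9% of all genes. The difference of the Pparg effect between the weeks was -0.14 on the log2 scale (95% interval -0.59 to 0.31, adjusted p = 0.950, limma). In that test of the difference 0 of the 9 genes were called, beside 0% of all genes, and 0 of 9 passed at an unadjusted p under 0.05, beside 3.34%.

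Adipocytes and endothelial cells also express Pparg, so their markers are given beside it. The 7 adipocyte markers, all detected, summed to between 1523 and 2317 normalized reads in OA and between 2020 and 2623 in sham at 4 weeks, and to between 1487 and 2168 in OA and between 1961 and 3152 in sham at 12 weeks. Most of that sum was Lipe, a lipase also made outside fat cells. Adipoq, which encodes the fat cell hormone adiponectin, ranged from 8.24 to 10.8 in OA and from 4.603 to 27.9 in sham at 4 weeks. At 12 weeks it ranged from 8.58 to 10.7 in OA and from 6.88 to 15.3 in sham. The OA values of Adipoq lay inside the sham range at both weeks. At 4 weeks the ratio of the OA to the sham mean was 0.84 for Lipe, 0.73 for Adipoq and 0.86 for Plin4. It was 0.30 for Plin1, 0.40 for Cidec, 0.28 for Lep and 1.16 for Retn. In the same order the ratios were 0.78, 0.94, 1.05, 1.60, 1.09, 1.32 and 0.50 at 12 weeks. At 4 weeks the sham medians of Plin1, Cidec and Lep were 7.03, 10.66 and 3.68, beside highest sham values of 71.95, 60.35 and 25.53. These highest values were those of sham replicate 3, the shallowest library, as was that of Adipoq. The same library had the highest adipocyte sum in sham at 4 weeks. The 6 endothelial markers detected, of 7, had medians of 31323 in OA and 36376 in sham at 4 weeks and of 35425 and 36625 at 12 weeks. Across the 18 libraries, with group means taken out, Pparg had a Pearson r of 0.53 and a Spearman rho of 0.48 with the adipocyte sum and of 0.47 and 0.49 with the endothelial sum, where all points share the depth of their library. Its highest r with any marker list was 0.54, with the B cell markers (rho 0.32, and r 0.23 without the 2 farthest libraries). The part of these cells in the lower Pparg level was not tested.

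The 250 bases before each annotated start of Il4r and Pparg, the 2 genes that passed at an unadjusted p under 0.05, are shown with those of Klf4 from the RefSeq annotation of GRCr8, which is not the build used by the authors. Pparg has 2 annotated starts, and the gene counts do not separate them. STAT6 prefers inverted palindromic sites, searched here as TTCNNNNGAA and, with the shorter spacer of other STAT proteins, as TTCNNNGAA. Each motif reads the same on both strands, so 1 search covers both. The first was present in 6.25% and the second in 7.67% of the 33469 promoter windows of all genes. Among the 8 windows matched, for 7 of the 10 genes (Arg1, Clec10a and Alox15 had none), the only match was 1 of the shorter motif in Klf4, given in capitals, which starts 126 bases before the start site. A window without a match says only that these letters are not in it.
Il4r, chr1:189545525-189545774, plus strand: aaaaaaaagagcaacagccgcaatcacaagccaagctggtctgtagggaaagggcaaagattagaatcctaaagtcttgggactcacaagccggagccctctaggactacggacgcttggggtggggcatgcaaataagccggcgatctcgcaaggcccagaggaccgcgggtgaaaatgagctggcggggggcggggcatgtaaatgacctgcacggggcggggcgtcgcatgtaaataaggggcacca
Pparg, first start, chr4:150096808-150097057, plus strand: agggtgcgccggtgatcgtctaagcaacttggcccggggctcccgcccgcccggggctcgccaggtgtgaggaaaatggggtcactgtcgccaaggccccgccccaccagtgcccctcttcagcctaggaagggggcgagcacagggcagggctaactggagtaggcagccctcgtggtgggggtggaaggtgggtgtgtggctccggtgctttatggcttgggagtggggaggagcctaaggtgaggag
Pparg, second start, chr4:150154522-150154771, plus strand: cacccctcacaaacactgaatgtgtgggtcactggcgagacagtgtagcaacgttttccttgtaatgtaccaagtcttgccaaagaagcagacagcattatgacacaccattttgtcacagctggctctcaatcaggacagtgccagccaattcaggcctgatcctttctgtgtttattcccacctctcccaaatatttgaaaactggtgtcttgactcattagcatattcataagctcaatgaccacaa
Klf4, chr5:75078593-75078842, minus strand: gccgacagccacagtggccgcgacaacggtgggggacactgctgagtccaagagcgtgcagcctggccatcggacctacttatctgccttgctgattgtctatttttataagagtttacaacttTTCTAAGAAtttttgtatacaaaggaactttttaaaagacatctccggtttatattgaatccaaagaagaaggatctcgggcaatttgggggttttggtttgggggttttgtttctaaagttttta

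Klf4, a zinc finger factor induced by STAT6 and also an immediate response gene in many cells, varied among libraries and did not pass the test at either week. At 4 weeks it stood at 9980, 10497, 7933, 9595 and 10368 normalized reads in OA replicates 1 to 5 and at 10086, 8724, 5735, 10763 and 10154 in sham replicates 1 to 5, with the lowest values in replicate 3 of each group. At 12 weeks it stood at 14344, 14131, 11750 and 9343 in OA replicates 1 to 4 and at 13248, 12291, 15253 and 15297 in sham replicates 1 to 4, with OA replicates 3 and 4 below every sham library. The log2 fold changes were 0.12 (95% interval -0.23 to 0.47) and -0.19 (-0.51 to 0.12), the first was -0.04 without sham replicate 3, and the second was -0.06 without OA replicate 4.

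The summed level of 10 immediate early genes (Fos, Jun and Egr1 among them), which tissue dissociation is known to induce, moved with Klf4. With group means taken out, the Pearson r over the 18 libraries was 0.82 and the Spearman rho 0.80, and r was 0.75 without the 2 libraries farthest from the median of that sum. In CPM the sum ran from 9247 to 12712 at 4 weeks and from 11716 to 16432 at 12 weeks. The part of dissociation in the level of Klf4 was not tested.

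**Figure D3:**
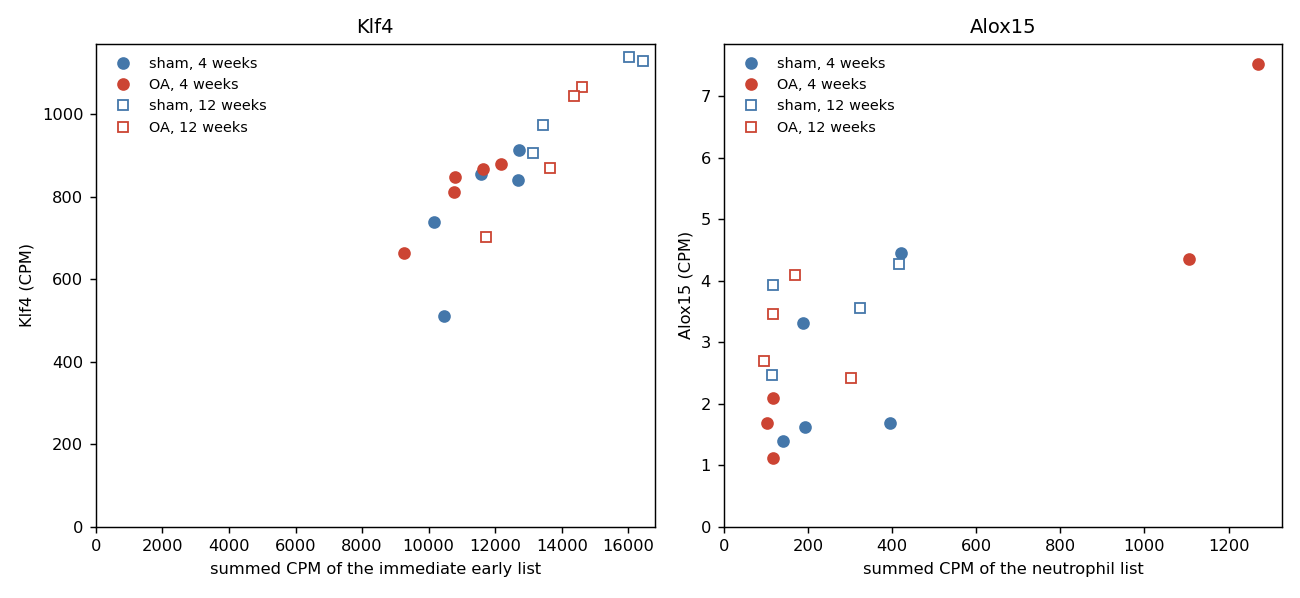
Level of Klf4 against the summed level of 10 immediate early genes (left) and of Alox15 against that of 11 neutrophil markers (right), both in CPM, for each of the 18 libraries (blue sham, red OA; filled 4 weeks, open 12 weeks). Klf4 is high where the immediate early sum is high, and the OA libraries with neutrophil sums of 1105 and 1269 CPM at 4 weeks are among the 3 highest in Alox15.

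Arg1, the arginine-degrading enzyme that marks alternative activation in rodents, was low in every library. At 4 weeks it stood at 45.1, 73.4, 40.5, 34.9 and 27.1 normalized reads in OA replicates 1 to 5 and at 189.7, 46.5, 32.5, 50.4 and 76.4 in sham replicates 1 to 5. Sham replicate 1 stood far above the rest, and the other 4 sham values lay within or just above the OA range. The log2 fold change was -0.61 (95% interval -1.50 to 0.27, adjusted p = 0.700, limma) and became -0.23 without sham replicate 1. At 12 weeks Arg1 stood at 27.1, 16.3, 25.7 and 66.5 in OA and at 36.3, 41.3, 25.4 and 28.7 in sham, with both the highest and the lowest value in OA. The log2 fold change was -0.12 (95% interval -0.94 to 0.69, adjusted p = 0.901, limma), and ran from -0.50 (without OA replicate 4) to 0.15 (without OA replicate 2), so effects of either sign remain possible at this depth.

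Retnla, a secreted protein induced by IL-4 in mouse macrophages, was close to undetected. The OA libraries at 4 weeks held 1, 0, 0, 1 and 0 recovered reads and the sham libraries 0, 1, 4, 1 and 0. The 4 reads of sham replicate 3 equal 9.28 normalized reads, because that library is the shallowest. All 8 libraries at 12 weeks held 0 reads, which allows up to 3 reads in each, or between 2.27 and 3.82 normalized reads, and this limit covers counting error only.

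Clec10a, a lectin of alternatively activated macrophages and dendritic cells, was well expressed in all libraries. At 4 weeks it stood at 4456, 4432, 5349, 4198 and 3906 normalized reads in OA replicates 1 to 5 and at 4124, 5666, 5415, 4538 and 4250 in sham replicates 1 to 5. At 12 weeks it stood at 6909, 7237, 5794 and 6504 in OA replicates 1 to 4 and at 6576, 9174, 5562 and 8837 in sham replicates 1 to 4. The log2 fold changes of -0.10 (95% interval -0.35 to 0.15) and -0.16 (-0.51 to 0.18) had intervals that include 0. Without sham replicate 3 of 12 weeks the second was -0.30 (unadjusted p = 0.0356, adjusted p = 0.365, limma), and without sham replicate 2 of that week it was -0.06. Those of 4 weeks ran from -0.17 (without OA replicate 3) to -0.04 (without sham replicate 2). In sham at 12 weeks replicates 2 and 4 lay above every OA library, and replicate 3 lay below every OA library. The 7 mast cell markers, with which Clec10a had a Pearson r of 0.71 and a Spearman rho of 0.67 over the 18 libraries after taking out group means, summed to between 1063 and 4689 normalized reads per library. With the sum of the 12 macrophage markers, r was 0.58 and rho 0.53. The part of mast cells in the level of Clec10a was not tested.

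Alox15, a lipid-oxidizing enzyme strongly induced by IL-4 that eosinophils also express, was low and uneven. At 4 weeks it stood at 51.3, 13.3, 90.0, 19.9 and 24.9 normalized reads in OA replicates 1 to 5 and at 53.4, 16.5, 37.1, 19.9 and 19.3 in sham replicates 1 to 5. The highest values were OA replicate 3, sham replicate 1 and OA replicate 1, so both groups held high and low libraries. At 12 weeks it stood at 55.0, 32.7, 36.5 and 46.1 in OA replicates 1 to 4 and at 58.2, 53.3, 33.1 and 48.3 in sham replicates 1 to 4, and the groups overlapped. The log2 fold changes were 0.25 (95% interval -0.80 to 1.30) and -0.17 (-0.67 to 0.32). Single libraries moved both, the first between -0.12 (without OA replicate 3) and 0.55 (without OA replicate 2), and the second between -0.34 (without sham replicate 3) and -0.06 (without OA replicate 2).

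The 11 neutrophil markers, all detected, were summed per library. At 4 weeks this sum spanned 1230 to 15175 normalized reads in OA (median 1407) against 1677 to 5063 in sham (median 2285). OA replicates 1 and 3 (1105 and 1269 CPM) lay above every sham library, with replicate 3 the highest. OA replicates 2, 4 and 5 (117, 104 and 118 CPM) lay below every sham library, of which the lowest held 142 CPM. The 12-week sums spanned 1297 to 4102 normalized reads in OA (median 1921) against 1549 to 5658 in sham (median 2987). With group means taken out, the neutrophil sum had a Pearson r of 0.72 and Spearman rho of 0.68 with Alox15 over 18 libraries. Without the 2 farthest libraries r was 0.54. The 7 eosinophil markers, of which Alox15 is 1, summed to between 376 and 1231 normalized reads in OA and between 508 and 1051 in sham at 4 weeks, and to between 585 and 1081 in OA and between 847 and 1887 in sham at 12 weeks, so the groups overlapped. The sum of the other 6 eosinophil markers had a Pearson r of 0.16 and a Spearman rho of -0.02 with Alox15, with group means taken out. Without the 2 libraries farthest from the median of that sum, r was -0.16. The part of these cells in the level of Alox15 was not tested.

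The second question was whether the genes differed between 4 and 12 weeks within each surgery. The weeks also differ in the age of the rats and in the number of rats per pool, and no label gives a sequencing run or date, so none of these can be told apart from the time since surgery. In sham libraries 0 of the 9 genes were called, beside 1.4% of 14876 genes, and 5 of 9 passed at an unadjusted p under 0.05 (3 higher and 2 lower at 12 weeks), beside 19.4% of all genes. In OA libraries 0 of 9 were called, beside 0.921%, and 2 of 9 passed at an unadjusted p under 0.05, beside 14.5%. The 2 comparisons share no libraries but share 1 estimate of the spread.

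Il4r was higher at 12 weeks after both surgeries. In sham its level was 347 ± 57.8 CPM (SD, n = 4) at 12 weeks against 263 ± 10.9 (n = 5) at 4 weeks, and the lowest library at 12 weeks (277.2) lay just above the highest at 4 weeks (276.4). In OA it was 359 ± 18.5 CPM (n = 4) against 297 ± 10.6 (n = 5), again without overlap. The share of all genes whose weeks do not overlap was not counted, so this separation has no baseline. The log2 fold change of Il4r was 0.38 in sham (SE 0.09, adjusted p = 0.0290, limma) and 0.27 in OA (SE 0.09, unadjusted p = 0.0055, adjusted p = 0.150, limma). The sham value passed the adjusted p, as 1.88% of all genes did without a fold-change minimum, but not the minimum of 0.5. Without sham replicate 3 of 12 weeks it was 0.30 (adjusted p = 0.0623, limma).

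Clec10a and Klf4 were higher at 12 weeks in sham without passing the adjusted p. Clec10a was 556 ± 127 CPM (SD, n = 4) at 12 weeks against 410 ± 67.0 (n = 5) at 4 weeks in sham, and 492 ± 46.0 against 376 ± 44.8 in OA. Its log2 fold changes were 0.43 (adjusted p = 0.120, limma) and 0.39 (adjusted p = 0.210, limma), and the sham value became 0.56 (adjusted p = 0.0398, limma) without sham replicate 3 of 12 weeks, where it passed the call. Klf4 was 1036 ± 116 CPM (n = 4) against 772 ± 158 (n = 5) in sham (log2 fold change 0.45, adjusted p = 0.137, limma) and 921 ± 171 against 813 ± 87.5 in OA (0.17, adjusted p = 0.694, limma). Over 27 alternatives the log2 fold change of Klf4 in sham ran from 0.30 to 0.52. The immediate early sum was higher at 12 weeks as well, as given above.

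Arg1 and Il2rg were lower at 12 weeks in sham, each at an unadjusted p under 0.05 only. Arg1 was 2.43 ± 0.517 CPM (SD, n = 4) against 6.67 ± 5.27 (n = 5), a log2 fold change of -1.15 (adjusted p = 0.146, limma) that became -0.78 without sham replicate 1 of 4 weeks. Il2rg was 77.9 ± 4.18 CPM (n = 4) against 91.2 ± 13.7 (n = 5), a log2 fold change of -0.21 (adjusted p = 0.229, limma) that ran from -0.30 to -0.14 over 27 alternatives. The OA means were lower at 12 weeks too, at 2.53 ± 1.68 against 3.71 ± 1.47 CPM for Arg1 and 74.1 ± 5.11 against 84.6 ± 6.78 for Il2rg. Neither passed an unadjusted p under 0.05 in OA in limma. Over 27 alternatives the OA log2 fold change ran from -1.01 to -0.37 for Arg1 and from -0.24 to -0.15 for Il2rg. With sample quality weights Il2rg in OA had an adjusted p of 0.0436 in limma. Stat6 differed by 0.07 in sham (95% interval -0.06 to 0.20) and by 0.05 in OA (-0.08 to 0.18) on the log2 scale, Il13ra1 by 0.04 and -0.01, and Pparg by 0.07 and -0.06.

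**Figure D4:**
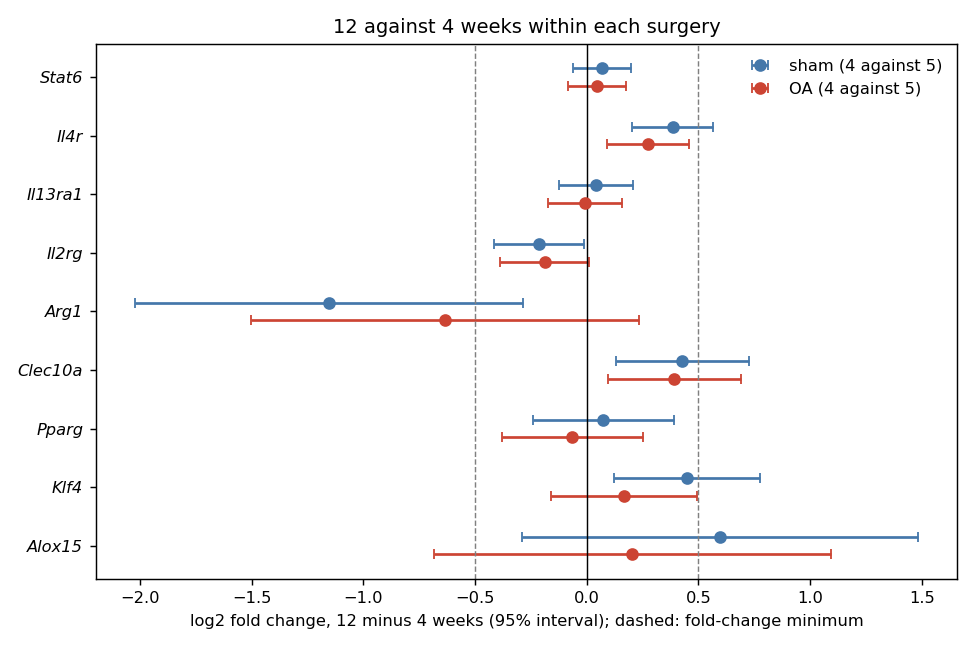
Log2 fold change of 12 against 4 weeks for the 9 genes tested, within sham (blue) and within OA (red), with 95% limma intervals from log2 CPM of all 18 libraries. Both intervals of Il4r and of Clec10a lie above 0, and those of Stat6, Il13ra1, Pparg and Alox15 include 0 after both surgeries.

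The ligands and the rest of the pathway were read from a list of 15 genes, of which 13 were tested. Il4 and Il13, the ligands, were near the limit of detection. Il4 had 2 reads in all OA and 3 in all sham libraries at 4 weeks and 1 and 5 at 12 weeks, and Il13 had 0 and 5 at 4 weeks and 3 and 3 at 12 weeks. None of the 13 was called between OA and sham at either week, where 0% of all genes were called. At an unadjusted p under 0.05, 0 of 13 passed at 4 weeks, beside 7.92% of all genes, and 4 of 13 at 12 weeks, all lower in OA, beside 12.4%. The medians of the list's log2 fold changes were 0.07 and -0.09, beside 0.03 and -0.01 over all genes.

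Jak3, the kinase bound to the gamma chain, ranged from 309 to 403 normalized reads in OA and from 453 to 539 in sham at 12 weeks. At that week the groups did not overlap for Jak3 and Crebbp of this list, beside 6.29% of all genes. The log2 fold change of Jak3 was -0.46 (unadjusted p = 0.000614, adjusted p = 0.264, limma), against -0.08 (adjusted p = 0.850, limma) at 4 weeks. Its difference between the weeks had an adjusted p of 0.944 in limma. Il13ra2, a receptor chain that binds interleukin-13 and is regarded as a decoy, ranged from 31.1 to 62.8 in OA and from 57.5 to 110.3 in sham at 12 weeks, with 3 of 4 OA libraries below every sham library. Its log2 fold change was -0.92 (adjusted p = 0.278, limma) at 12 weeks and -0.46 (adjusted p = 0.659, limma) at 4 weeks. The other genes lower at 12 weeks were the coactivators Crebbp (-0.15) and Ncoa1 (-0.20). At 4 weeks the smallest unadjusted p-values, apart from that of Il13ra2, were those of the phosphatase Ptpn6 (log2 fold change 0.18, adjusted p = 0.646, limma) and the feedback inhibitor Cish (-0.30, adjusted p = 0.672, limma). Irs2, an adaptor that IL-4Rα recruits, was called higher at 12 weeks in sham (log2 fold change 0.61, adjusted p = 0.00856, limma), while in OA it stood at 0.49 (adjusted p = 0.0352, limma), just under the fold-change minimum.

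A list of 23 further genes of alternative activation had 21 in the tables, of which 21 were tested at 4 weeks and 20 at 12 weeks. None was called between OA and sham at either week, where 0% of all genes were called. At an unadjusted p under 0.05, 3 of 21 passed at 4 weeks (1 higher and 2 lower in OA), beside 7.92% of all genes, and 4 of 20 at 12 weeks (2 higher and 2 lower), beside 12.4%. The medians of the log2 fold changes were 0.02 and 0.05, beside 0.03 and -0.01 over all genes. Msr1, a scavenger receptor, ranged from 5205 to 6906 normalized reads in OA and from 2781 to 4909 in sham at 4 weeks. At 12 weeks it ranged from 6045 to 8736 in OA and from 4134 to 6040 in sham. The groups did not overlap for Msr1 at either week, beside 1.87% of all genes at 4 weeks and 6.29% at 12 weeks. Its log2 fold change was 0.65 at 4 weeks (adjusted p = 0.349, limma) and 0.50 at 12 weeks (adjusted p = 0.278, limma), and over both weeks it was called higher in OA (0.57, SE 0.10, adjusted p = 0.0216, limma).

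Fabp4, a fatty acid binding protein and a known target of PPARγ, passed at an unadjusted p under 0.05 at both weeks, with log2 fold changes of -0.37 at 4 weeks (adjusted p = 0.629, limma) and -0.29 at 12 weeks (adjusted p = 0.397, limma). It ranged from 5352 to 8263 normalized reads in OA and from 6649 to 12280 in sham at 4 weeks, and from 5729 to 7793 in OA and from 7189 to 10238 in sham at 12 weeks, so the groups overlapped. Adipocytes and endothelial cells make Fabp4 too, and the marker sums given beside Pparg apply here. Their part in its level was not tested. The chemokine Ccl24 was lower at 4 weeks (-0.44, unadjusted p = 0.0450, limma). At 12 weeks the adhesion protein gene Cdh1 was higher (0.51, unadjusted p = 0.0373, limma) and the histone demethylase gene Kdm6b lower (-0.22, unadjusted p = 0.0491, limma).

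Between the weeks, 3 of 20 genes of that list were called in sham (2 higher and 1 lower at 12 weeks), beside 1.4% of all genes, and 3 of 20 in OA (all higher), beside 0.921%. Cd163, a haemoglobin scavenger receptor, was called higher at 12 weeks in sham (log2 fold change 0.83, adjusted p = 0.0116, limma) and in OA (0.74, adjusted p = 0.0273, limma). Kdm6b was called higher in sham (0.91, adjusted p = 0.00299, limma) and in OA (0.70, adjusted p = 0.0185, limma). Ccl24 was called higher in OA (0.93, adjusted p = 0.0358, limma), with 0.59 and an adjusted p of 0.145 in sham. Il1rn, the antagonist of the interleukin-1 receptor, was called lower in sham (-1.51, adjusted p = 0.0478, limma), with -0.73 and an adjusted p of 0.393 in OA. Whether these effects of the week differ between surgeries is the same test as the difference of the OA effect between weeks, in which none of them was called.

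**Figure D5:**
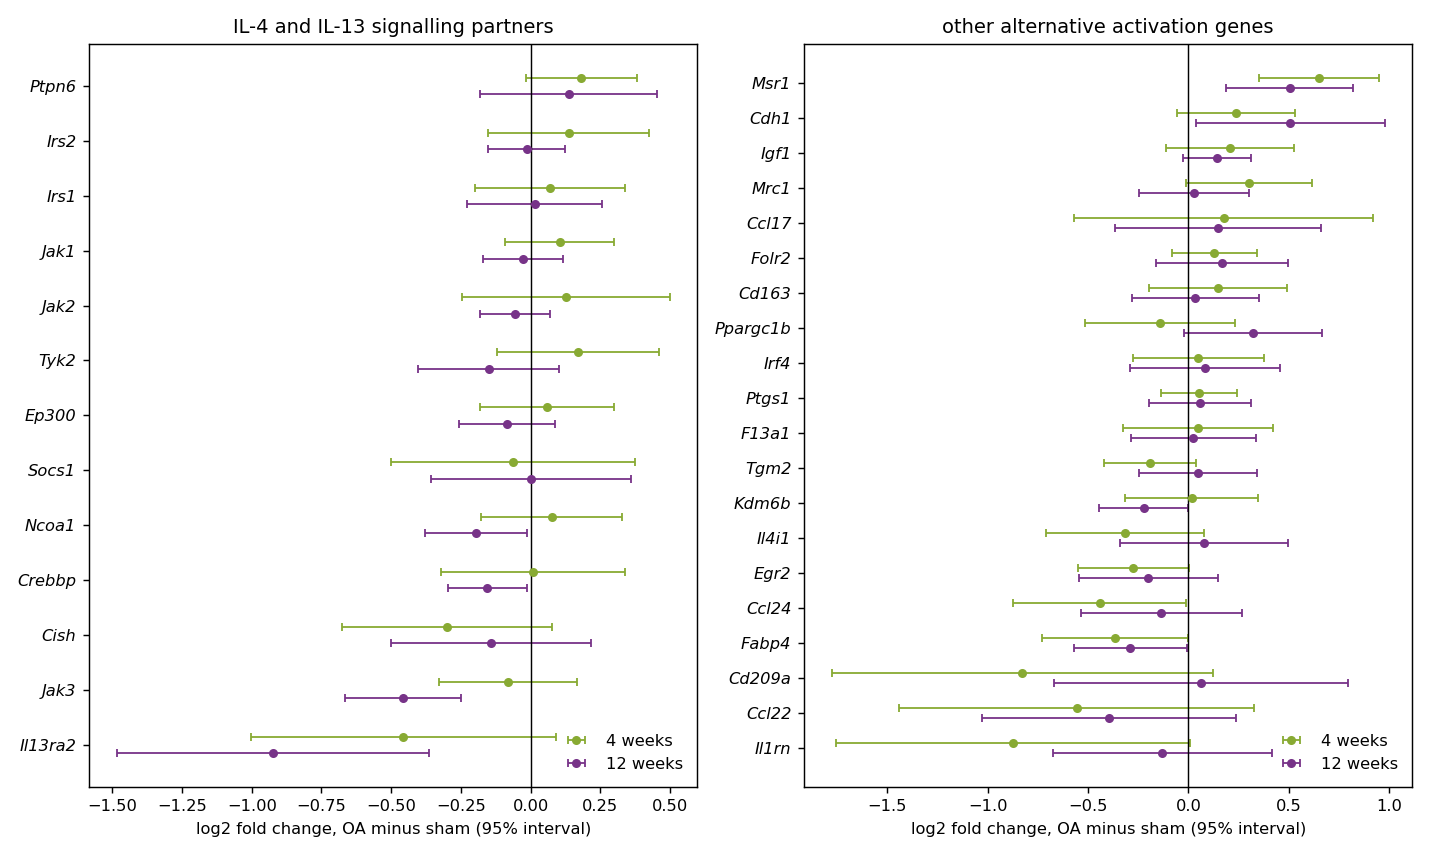
Log2 fold change of OA against sham for 13 signalling partners (left) and 20 further genes of alternative activation (right) at 4 weeks (green) and 12 weeks (purple), with 95% limma intervals, ordered by the fit over both weeks. Msr1 lies above 0 at both weeks, Fabp4 below 0 at both, and Jak3 and Il13ra2 below 0 at 12 weeks.

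The 10 genes did not vary as a block. With group means taken out, Pearson r among the 9 tested genes over the 18 libraries was highest for Il2rg with Arg1 (0.59, rho 0.30) and lowest for Il2rg with Clec10a (-0.67, rho -0.72), and Stat6 with Il4r had an r of 0.16. The genes whose pattern was most like that of Stat6 were Acp4 (r = 0.90, rho = 0.905), Atp6ap1 (r = 0.84, rho = 0.85) and Adap2 (r = 0.82, rho = 0.87). For Pparg they were Adra2a (r = 0.89, rho = 0.81), Pmfbp1 (r = 0.88, rho = 0.70) and Apod (r = 0.87, rho = 0.79). For Il4r they were Smad7 (r = 0.80), Col4a4 (r = 0.79) and Wbp1l (r = 0.78), and without the 2 libraries farthest from the median of Il4r these were 0.51, 0.60 and 0.55. These were the highest of all genes tested over 18 libraries that share depth and composition, and they are given as descriptions.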

How the data were processed

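RNA was sequenced from 18 libraries of CD11b/c-sorted synovial cells, grouped by surgery and week from the sample labels. Per the labels and the paper's methods, the authors processed reads with fastp 0.20.0, STAR 2.7.6a and featureCounts 2.0.0 against Rnor6 and divided them by DESeq2 1.24.0 size factors within each week. The authors deposited for each week a signal of normalized reads over 30643 genes. The deposited tables also hold the authors' own means, log2 fold changes, standard errors, test statistics and p-values, which were not used. In each library 100% of the values were whole multiples of 1 read (tolerance 0.1 reads), so the reads were recovered and used for the tests that cross weeks. Depth was 4662344 to 18080503 reads, at which 3 reads equal 2.06 to 6.96 normalized reads.

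OA and sham were compared within each week in limma 3.58.1 (R 4.3.3), with a mean-variance trend, on log2(normalized reads + 1), so that fold changes of low genes are understated. Genes entered from a mean of 10 upward, with Benjamini-Hochberg adjustment over all genes tested. Tests across weeks used log2 CPM of recovered reads with TMM scaling and a prior count of 2, in 1 model of all 18 libraries. The reads of libraries of the same group were compared in pairs for repeated deposits, and none agreed within sampling noise. Libraries of different groups were not compared in this way. Each library is a pool of rats, so p-values measure the spread between pools. Single values were also tested by exact permutation, two-sided. Marker lists were summed per library. Each tested member was correlated with every marker list, and only some of these values are given. The list shown for Clec10a, Klf4 and Alox15 is the one with the highest r. Values not shown include those of Il2rg with mast cell markers (-0.69) and of Il13ra1 with B cell markers (-0.70). Alternatives were edgeR 4.0.16, DESeq2 1.42.0, other scaling, pseudocounts and filters, sample quality weights, a replicate block and leaving out each library. The fits were also run on simulated counts, with planted changes larger than any member estimate here. That run gives no power for changes of the size seen in the members. Permutations were run in Python 3.11.15 (scipy 1.17.1).

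The members and lists were chosen with earlier results of these data known. From the pathway lists, genes are named that were called in a comparison or had the 3 smallest unadjusted p-values at a week, with Il4 and Il13 always, and Ncoa1 was added after its values were seen. Likeness is Pearson r over group-centred log2 CPM, given for Stat6 and for members with an unadjusted p under 0.05 between surgeries. Levels of different genes are not compared, since transcript lengths were not used here. Promoter windows are from RefSeq on GRCr8, and no other coordinates are given.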

Additional observations from a re-analysis of the deposited data

Results flagged for a closer look

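Among the 38 groups of 4 or 5 libraries in which a member's values were tested for a library far from the others, 1 was singled out. Il2rg in OA replicate 3 of 4 weeks had 871 normalized reads, while the other 4 OA libraries had 1011 to 1074. On the scale of log2(normalized reads + 1), its gap to the nearest library was 0.711 of the group's range, against a critical value of 0.71. On the reads themselves this share was not taken. Chance singles out about 1 in 20 such groups, or 5%. The same library had the highest neutrophil sum and the highest Alox15 level, and the part of other cells in its Il2rg level was not tested.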

How the results depend on the processing

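Genes called between OA and sham numbered 0 at 4 weeks, 0 at 12 weeks and 56 over both, and between weeks 208 in sham and 137 in OA. DESeq2 called 27, 95, 117, 548 and 270 in that order. Sample quality weights called 1 at 4 weeks, 140 over both weeks and 596 in OA between weeks. With every gene with a read, 20 were called over both weeks and 53 in OA between weeks, and with no fold-change minimum 111 over both weeks. Leaving out each library in turn gave 0 to 1 at 4 weeks, 0 to 81 at 12 weeks (81 without sham replicate 3), 5 to 110 over both weeks, 85 to 261 in sham and 41 to 231 in OA between weeks. None of the 9 genes tested was called between OA and sham under any of these alternatives. Between weeks in sham, 1 of the 9 was called in DESeq2 (Arg1, -1.45, adjusted p = 0.0448) and 1 with no fold-change minimum (Il4r), and 0 to 1 when leaving out each library (Clec10a without sham replicate 3 of 12 weeks).

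No label says whether the replicate numbers pair the OA and sham libraries, which are pools of different rats. Deviations of same-numbered OA and sham libraries correlated between -0.13 and 0.08 at 4 weeks and between -0.03 and 0.30 at 12 weeks. So few correlations cannot settle whether same-numbered libraries were handled together. With a replicate block in limma, 1 gene was called at 4 weeks and 84 over both weeks, and the adjusted p of Pparg over both weeks was 0.0418. At 12 weeks the block gave Pparg an adjusted p of 0.111, the lowest of 17 alternatives.

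The near-zero estimates changed sign. Stat6 at 12 weeks was -0.026 with sample quality weights and ran from -0.040 to 0.054 when leaving out each library, and its difference between weeks was 0.019 with a mean of at least 50 and ran from -0.066 to 0.023. Il4r at 12 weeks ran from -0.048 (without sham replicate 2) to 0.13, and the difference of Pparg between weeks from -0.25 to 0.018 (without OA replicate 4). Pparg kept its negative sign at both weeks under each alternative run, and of 35 further member estimates that none of the alternatives called, 17 changed sign under at least 1. The causes were not tested. Depth limits Retnla, Il4 and Il13, for which no comparison was possible.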
